A study of Mus musculus with 2 samples.

Results

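The 8 genes described here make, take up, bind, destroy or sense retinoic acid: Aldh1a1, Aldh1a2, Cyp26b1, Stra6, Crabp1, Crabp2, Rara and Rarb. They were chosen by symbol among the 32285 genes of 2 single-cell RNA sequencing libraries of mouse cerebellum, and all 8 were found. One library came from Cxcr4+/1013 mice, which carry 1 copy of an allele whose CXCR4 receptor lacks the end of its cytoplasmic tail, and the other from Cxcr4+/+ mice. Both came from lobules III-IV on postnatal day 1, both carry the strain label B6.129S2-Cxcr4tm1.1Bala, and the tissue was dissociated with papain before droplet capture. How many animals went into a library is not stated by the labels, and the protocol text writes the mutant as Cxcr4+/- where the genotype label, used here, writes Cxcr4+/1013. With 1 library of each genotype there was no replicate, so every difference is one between libraries and carries no test.

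Retinoic acid is made from circulating retinol. STRA6 moves retinol into cells, retinol dehydrogenases turn it into retinaldehyde, and the aldehyde dehydrogenases ALDH1A1 and ALDH1A2 oxidise retinaldehyde to retinoic acid. CRABP1 and CRABP2 bind retinoic acid inside cells, and CYP26 enzymes, CYP26B1 among them, break it down. RARA and RARB are nuclear receptors that pair with RXR partners on direct repeats in DNA and switch target genes when retinoic acid binds. In the developing brain the meninges are a known source of retinoic acid, and cells that hold CYP26 enzymes limit how far it reaches.

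Rarb is both a receptor and a known target of the pathway, and its promoter is a textbook example of a retinoic acid response element, so that stretch is shown. A RefSeq promoter of Rarb (GRCm38.p6, chr14:16575427-16575726, gene on the minus strand) holds a direct repeat 53 bases upstream of the annotated start. The stretch printed is chr14:16575507-16575535. The capitals mark the repeat, the hexamer GGTTCA and, after 5 further bases, the hexamer AGTTCA.
Rarb promoter: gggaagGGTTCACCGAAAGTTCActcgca
The search took any pair of the hexamer AGGTCA and its variants AGTTCA, with T at the third base, GGGTCA, with G at the first, and GGTTCA, with both, on both strands in the 250 bases before each start. Spacing of 5 bases occurred in 29 of 32851 RefSeq promoters (0.0883%), spacing of 2 bases in 57 (0.174%) and spacing of 1 base in 54 (0.164%). Among the promoters found for Aldh1a1, Aldh1a2, Cyp26b1, Crabp1, Rara and Stra6 none held any of these repeats. Crabp2 is named only. A match describes the letters of the window and says nothing of binding in these cells.

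The libraries held 130429500 UMIs in 9551 barcodes (Cxcr4+/1013) and 120003656 UMIs in 9586 barcodes (Cxcr4+/+), where a UMI is a counted RNA molecule. After the filters 7568 Cxcr4+/1013 and 7712 Cxcr4+/+ cells remained, with medians of 13280 and 11905 UMIs, and 25 barcode sequences occurred in both libraries. Cells fell into 32 clusters, which marker lists named as 17 classes, and 60 retinoid genes, these 8 among them, took no part in the clustering. Levels are UMIs of a gene per 1000000 UMIs of the class (CPM), with exact 95% Poisson intervals in brackets. Every interval here reflects counting alone and leaves out how animals or dissections vary. Cells with Xist UMIs and none of Y-linked genes, called female, were 43.2% of Cxcr4+/1013 and 47.2% of Cxcr4+/+ cells, so both libraries mixed the sexes.

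Each gene except Rara had a class where it stood out. Aldh1a2, Crabp2, Rarb, Stra6, Crabp1 and Aldh1a1 were highest, in both libraries, in the fibroblast-like cells of meninges and vessels, where all 10 fibroblast markers were detected. Cyp26b1 was highest in astroglia-like cells, where all 12 astroglial markers were detected. Rara was highest in border macrophage-like and endothelial-like cells, whose pooled intervals overlapped. These statements leave out the lymphocyte-like or granulocyte-like class, which numbered 5 cells in the Cxcr4+/1013 and 11 cells in the Cxcr4+/+ library.

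Several of these classes differed in size between the libraries. Fibroblast-like cells numbered 33 in the Cxcr4+/1013 library, 0.436% of its cells, and 170 in the Cxcr4+/+ library, 2.204% of its cells. Endothelial-like cells numbered 38 in the Cxcr4+/1013 and 84 in the Cxcr4+/+ library, mural-like cells 24 in the Cxcr4+/1013 and 50 in the Cxcr4+/+ library, and astroglia-like cells 469 in the Cxcr4+/1013 and 751 in the Cxcr4+/+ library. Whether these sizes come from the genotype or from how much of the meninges each dissection took cannot be told apart.

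**Figure D1:**
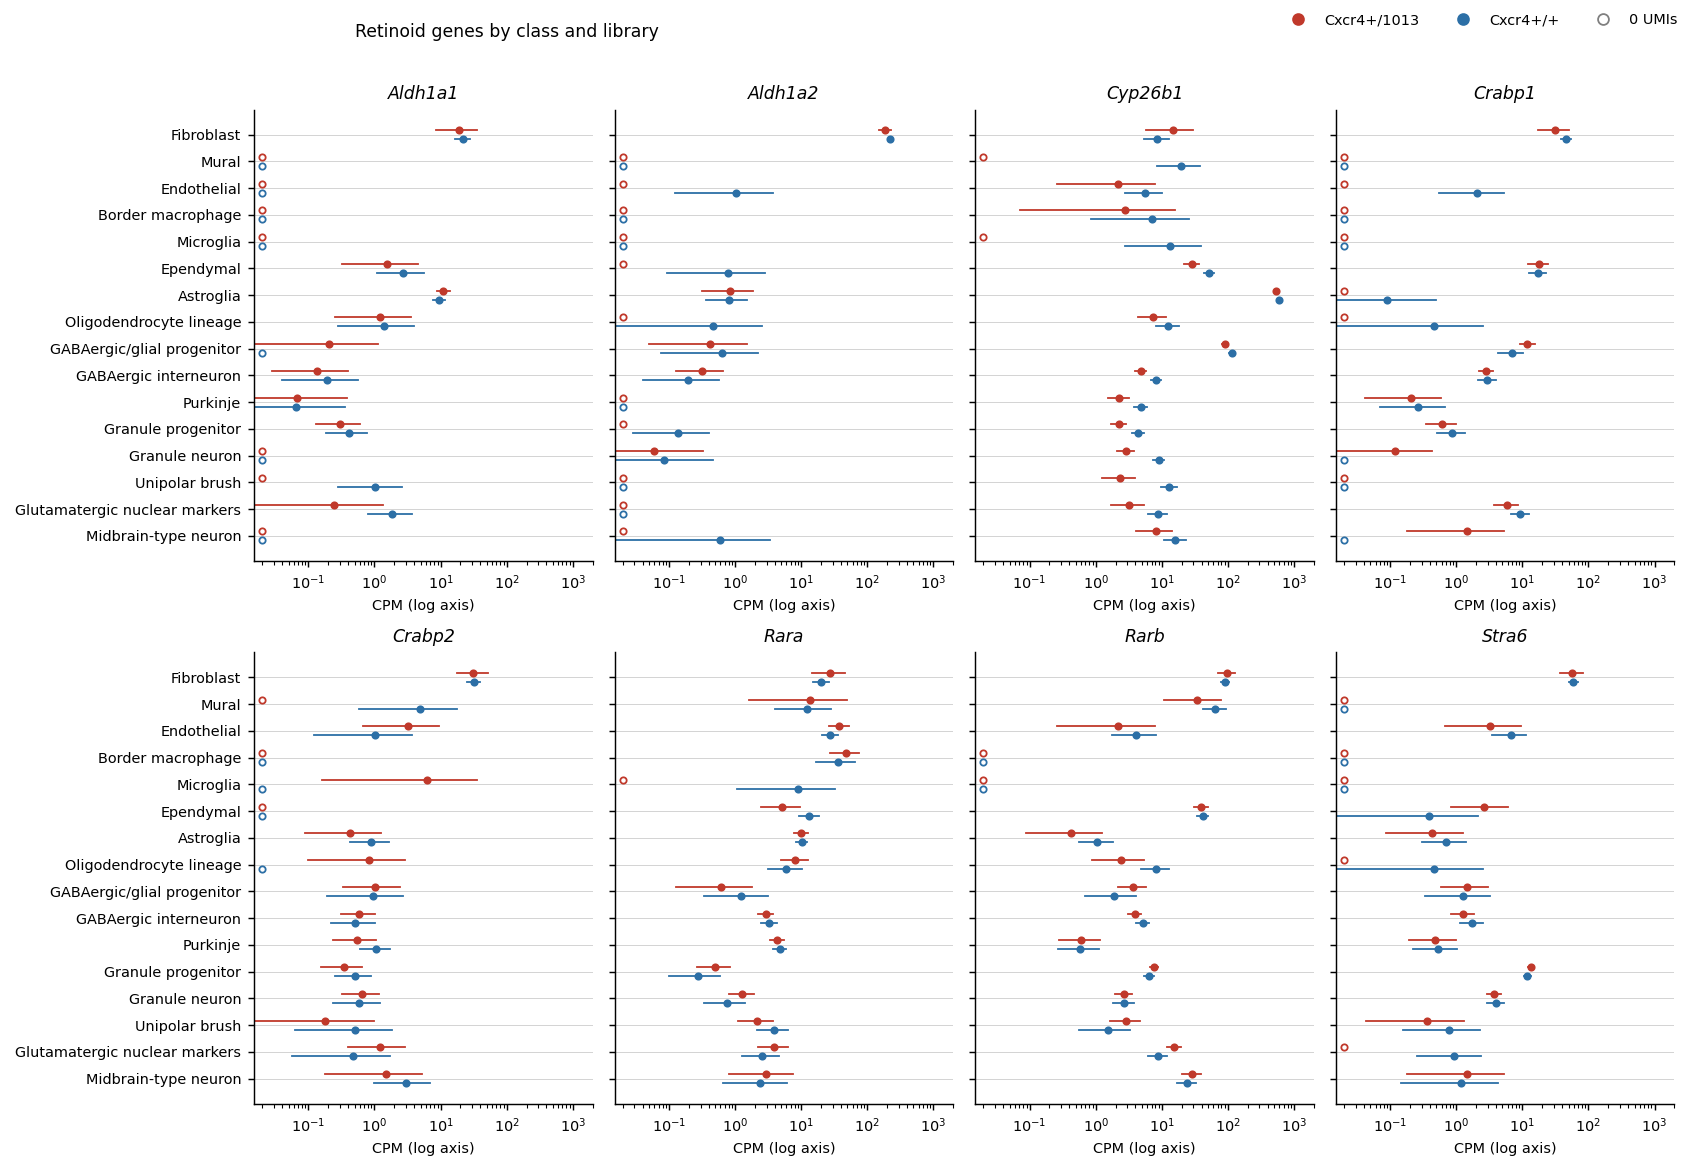
Level of each gene in 16 named classes, in CPM on a log axis, with exact 95% Poisson intervals as lines; red is the Cxcr4+/1013 library, blue the Cxcr4+/+ library, and an open circle at the left edge stands for 0 UMIs. Aldh1a2 reached 186 CPM in Cxcr4+/1013 and 225 CPM in Cxcr4+/+ fibroblast-like cells, while Cyp26b1 reached 536 CPM in Cxcr4+/1013 and 588 CPM in Cxcr4+/+ astroglia-like cells.

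Over all cells, 5 of the 8 genes were at least 1.5-fold lower in the Cxcr4+/1013 library and none was 1.5-fold higher. Of 19111 genes with a total of at least 50 UMIs, 7.4% were 1.5-fold lower and 2.21% were 1.5-fold higher, 9.61% in all. The members' median log2 ratio was -0.74, against -0.01 over all those genes. Aldh1a2 had 0.947 CPM in Cxcr4+/1013 cells and 6.03 CPM in Cxcr4+/+ cells, a ratio of 0.157 (0.126 to 0.193). That was the lowest ratio of the 8. Crabp2 had 0.703 CPM in Cxcr4+/1013 cells and 1.49 CPM in Cxcr4+/+ cells (ratio 0.471, 0.353 to 0.622). Aldh1a1 had 0.965 CPM in Cxcr4+/1013 and 1.98 CPM in Cxcr4+/+ cells (ratio 0.487, 0.382 to 0.619). Cyp26b1 had 42.3 CPM in Cxcr4+/1013 cells and 79.2 CPM in Cxcr4+/+ cells (ratio 0.534, 0.515 to 0.554). Crabp1, with 1.99 CPM in Cxcr4+/1013 and 2.99 CPM in Cxcr4+/+ cells, lay at the limit itself with a ratio of 0.667 (0.558 to 0.796), and it fell short of it with either of the other scalings tried. The receptors and the retinol importer were closer to 1: the ratio was 0.718 (0.625 to 0.824) for Rara, 0.730 (0.656 to 0.812) for Rarb and 0.868 (0.768 to 0.982) for Stra6.

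The classes that held a gene's UMIs took different shares of them in the libraries, for some genes more than for others. Fibroblast-like cells gave 84.8% of Aldh1a2 UMIs in the Cxcr4+/1013 library and 95.7% in the Cxcr4+/+ library. They gave 19.2% of Crabp2 UMIs in the Cxcr4+/1013 and 55.0% in the Cxcr4+/+ library, and 6.79% of Crabp1 UMIs in the Cxcr4+/1013 and 39.7% in the Cxcr4+/+ library. They gave 7.53% of Rarb UMIs in the Cxcr4+/1013 and 30.2% in the Cxcr4+/+ library, and 5.28% of Stra6 UMIs in the Cxcr4+/1013 and 28.5% in the Cxcr4+/+ library. Astroglia-like cells gave 80.6% of Cyp26b1 UMIs in the Cxcr4+/1013 library and 82.9% in the Cxcr4+/+ library.

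When the Cxcr4+/1013 levels within classes were weighted by the class shares of the Cxcr4+/+ library, none of the 8 genes was past 1.5-fold. The ratio then was 0.819 for Aldh1a2, 0.927 for Crabp2, 0.958 for Aldh1a1, 0.856 for Cyp26b1, 0.863 for Crabp1, 1.03 for Rara, 1.03 for Rarb and 1.02 for Stra6. This weighting was chosen after the class shares had been seen.

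**Figure D2:**
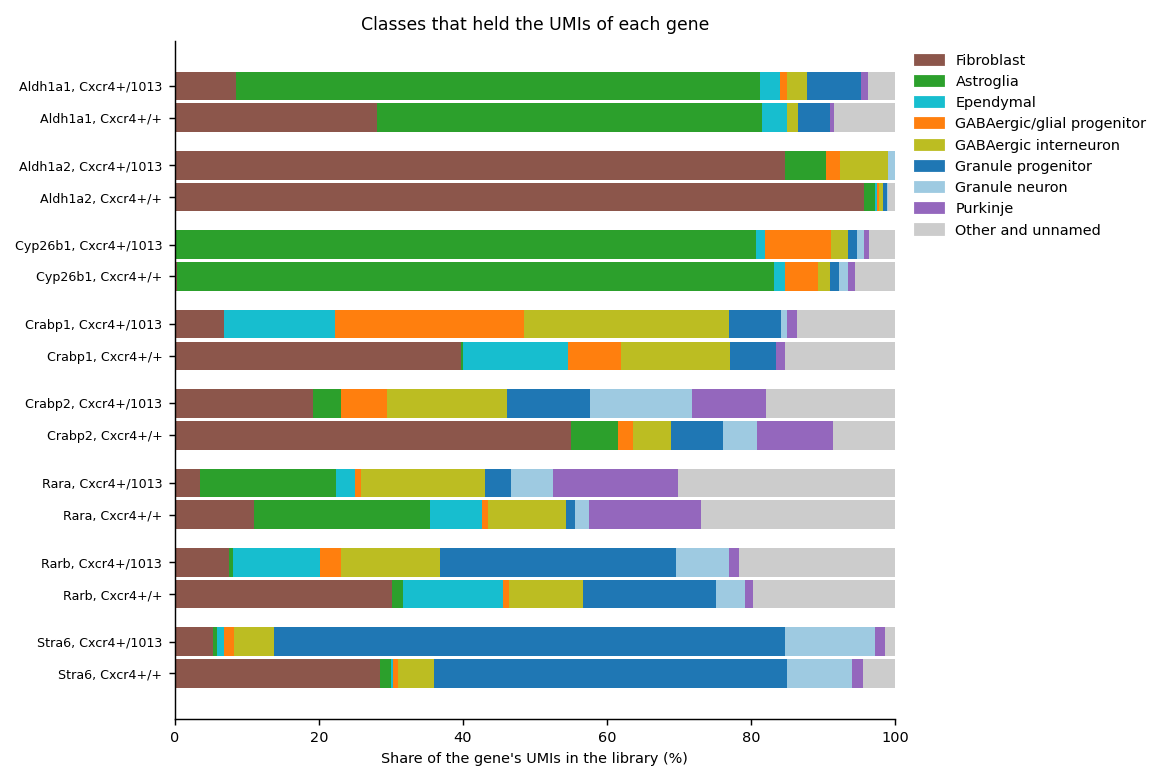
Share of each gene's UMIs, in percent of its UMIs in that library, that fell in each class; bars are the Cxcr4+/1013 and the Cxcr4+/+ library. The fibroblast-like share of Crabp2 was 19.2% in the Cxcr4+/1013 and 55.0% in the Cxcr4+/+ library, and the granule cell progenitor-like share of Stra6 was 71.0% in the Cxcr4+/1013 and 49.1% in the Cxcr4+/+ library.

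**Figure D3:**
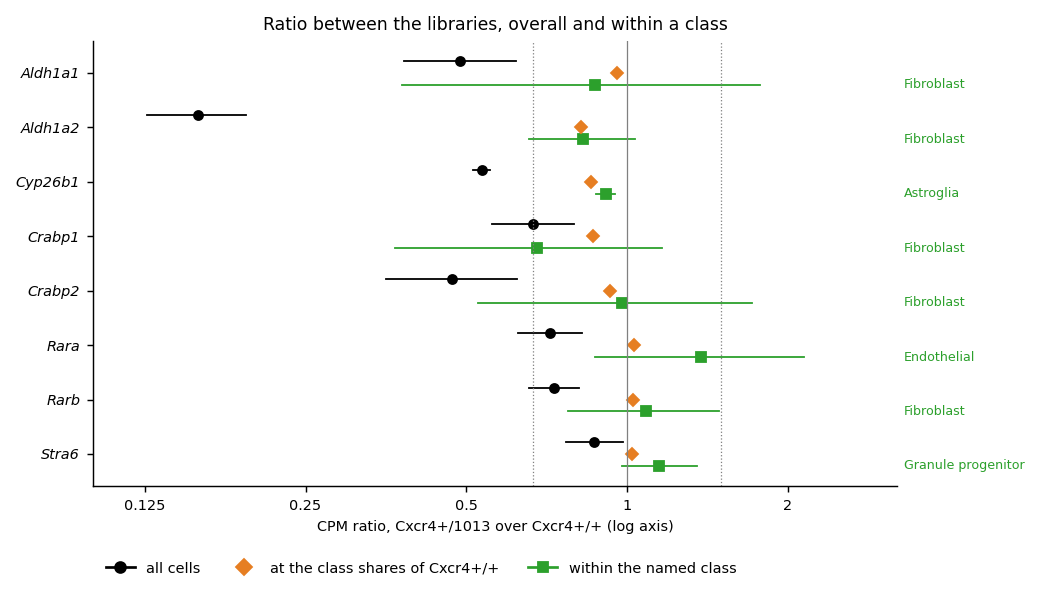
Ratio of CPM, Cxcr4+/1013 over Cxcr4+/+, on a log axis for all cells (black, with exact conditional 95% intervals), at the class shares of the Cxcr4+/+ library (orange, no interval) and within the class named at the right (green, with intervals); dotted lines mark 1.5-fold. Aldh1a2 lay at 0.157 over all cells and at 0.828 within fibroblast-like cells.

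Aldh1a2 (ENSMUSG00000013584, chr9:71215789-71296243, plus strand, GRCm38), the main retinoic acid-making enzyme of embryonic mesenchyme, came almost wholly from fibroblast-like cells. They held 89 UMIs in the Cxcr4+/1013 library, or 186 CPM (149 to 229), and 583 UMIs in the Cxcr4+/+ library, or 225 CPM (207 to 244). The ratio within the class was 0.828 (0.655 to 1.04), an interval that holds 1. An Aldh1a2 UMI was found in 23 of 33 Cxcr4+/1013 cells (69.7%, exact 51.3 to 84.4) and in 141 of 170 Cxcr4+/+ cells (82.9%, 76.4 to 88.3). At an equal depth of 2000 UMIs per cell the expected shares were 26.4% of 32 Cxcr4+/1013 cells and 34.4% of 164 Cxcr4+/+ cells. Cells without an Aldh1a2 UMI were shallower: their median was 4479 UMIs in the Cxcr4+/1013 library, where cells with one had 16934, and 6687 UMIs in the Cxcr4+/+ library, where cells with one had 16135.

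Other classes held little Aldh1a2. Purkinje-like cells, a neuronal class, had none in 428 Cxcr4+/1013 and 505 Cxcr4+/+ cells at median depths of 36333.5 and 34337 UMIs, which allows up to 0.701% of Cxcr4+/1013 and 0.594% of Cxcr4+/+ cells with a UMI and sets no limit on cells that express the gene. Astroglia-like cells held 6 UMIs in the Cxcr4+/1013 and 9 UMIs in the Cxcr4+/+ library.

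The fibroblast-like cells carried genes listed for more than 1 meningeal layer in both libraries. All 4 genes listed for the pial layer, next to the brain surface, were detected. Lama1, a laminin chain of basement membranes, had 854 CPM in Cxcr4+/1013 and 574 CPM in Cxcr4+/+ fibroblast-like cells. Cxcl12, the ligand of CXCR4, had 2191 CPM in Cxcr4+/1013 and 2486 CPM in Cxcr4+/+ cells of the class, and S100a6 had 2508 CPM in Cxcr4+/1013 and 2529 CPM in Cxcr4+/+ cells. Slc47a1, listed for the arachnoid layer, and Dkk2, listed for the dural layer, were at 0 UMIs in both libraries. Cldn11, also listed for the arachnoid, had 91.9 CPM in Cxcr4+/1013 and 99.4 CPM in Cxcr4+/+ cells, and Angptl2, of the same list, had 29.2 CPM in Cxcr4+/1013 and 35.8 CPM in Cxcr4+/+ cells. Dpp4 and Wnt6, of that list too, had 0 and 4 UMIs in Cxcr4+/1013 and 7 and 13 UMIs in Cxcr4+/+ cells. Foxp1, listed for the dura, had 261 CPM in Cxcr4+/1013 and 238 CPM in Cxcr4+/+ cells. It was found in 78.8% of Cxcr4+/1013 and 79.4% of Cxcr4+/+ cells. Foxp1 was not particular to the class, which held 0.57% of its UMIs in the Cxcr4+/1013 and 3.33% in the Cxcr4+/+ library. Nor was Angptl2, with 0.705% in the Cxcr4+/1013 and 5.38% in the Cxcr4+/+ library. For Ngfr, of the pial list, the shares were 2.42% in the Cxcr4+/1013 and 12.3% in the Cxcr4+/+ library. They were larger for Cldn11, at 21.3% in the Cxcr4+/1013 and 53.1% in the Cxcr4+/+ library. Other genes of the dural list were low. Mgp had 0 UMIs in Cxcr4+/1013 and 8 UMIs in Cxcr4+/+ cells, Fxyd5 2 and 26 UMIs, and Smoc2 1 and 3 UMIs. The class was therefore not assigned to 1 layer. The sum of the 10 fibroblast markers was 13694 CPM in Cxcr4+/1013 and 15299 CPM in Cxcr4+/+ cells, and that of the 12 astroglial markers was 4394 CPM in Cxcr4+/1013 and 2692 CPM in Cxcr4+/+ cells. Its part in the results for this class was not tested.

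Cells with Aldh1a2 carried other genes of the pathway as well: 16 of 23 such cells in the Cxcr4+/1013 library and 85 of 141 in the Cxcr4+/+ library had an Rarb UMI. Stra6 was found in 9 of those 23 and in 72 of those 141 cells. Over all fibroblast-like cells, Rarb was found in 18 of 33 Cxcr4+/1013 and 95 of 170 Cxcr4+/+ cells, and Stra6 in 12 and 82. The other members were found in fewer cells with Aldh1a2. They ranged from 1 (Cyp26b1) to 7 (Crabp1 and Rara) of the 23, and from 18 (Cyp26b1) to 51 (Crabp1) of the 141. Since the cells without Aldh1a2 were shallower, their shares are not set against these.

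Aldh1a1 (ENSMUSG00000053279, chr19:20492715-20643465, plus strand), the other retinaldehyde-oxidising enzyme, was found in fibroblast-like and in astroglia-like cells. Fibroblast-like cells had 18.8 CPM from 9 UMIs in the Cxcr4+/1013 library and 21.6 CPM from 56 UMIs in the Cxcr4+/+ library (ratio 0.871, 0.379 to 1.77). Astroglia-like cells had 11.1 CPM from 78 UMIs in the Cxcr4+/1013 library and 9.49 CPM from 107 UMIs in the Cxcr4+/+ library (ratio 1.17, 0.859 to 1.57). Neither ratio stood apart from 1. The pooled intervals of the classes, 16.3 to 26.9 CPM for fibroblast-like and 8.70 to 11.7 CPM for astroglia-like cells, did not overlap, while ependymal-like and all other classes lay lower. The share of all Aldh1a1 UMIs that came from astroglia-like cells was 72.9% in the Cxcr4+/1013 and 53.5% in the Cxcr4+/+ library. C730002L08Rik, annotated on the opposite strand, overlaps the start of Aldh1a1, and whether the counting used strand is not stated.

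The astroglia-like class was made of 2 clusters, and Aldh1a1 and Cyp26b1 were distributed in opposite ways between them. In cluster 6, where the astrocyte filament gene Gfap had 96.6 CPM in Cxcr4+/1013 and 150 CPM in Cxcr4+/+ cells, Aldh1a1 had 17.8 CPM (13.9 to 22.6) in Cxcr4+/1013 and 17.2 CPM (13.9 to 21.0) in Cxcr4+/+ cells. In cluster 8, where the Bergmann glia gene Gdf10 had 1456 CPM in Cxcr4+/1013 and 1271 CPM in Cxcr4+/+ cells, Aldh1a1 had 2.83 CPM (1.29 to 5.37) in Cxcr4+/1013 and 2.09 CPM (1.08 to 3.65) in Cxcr4+/+ cells. Cyp26b1 ran the other way: it had 366 CPM in Cxcr4+/1013 and 394 CPM in Cxcr4+/+ cells of cluster 6, and 743 CPM in Cxcr4+/1013 and 775 CPM in Cxcr4+/+ cells of cluster 8. The intervals of the clusters did not overlap for either gene in either library. Rara resembled Aldh1a1 here, with 13.4 CPM in Cxcr4+/1013 and 15.7 CPM in Cxcr4+/+ cells of cluster 6, and 5.66 CPM in Cxcr4+/1013 and 4.87 CPM in Cxcr4+/+ cells of cluster 8. The markers did not part the clusters cleanly. In cluster 6, Gdf10 was found in 69.0% of Cxcr4+/1013 and 71.1% of Cxcr4+/+ cells, at 293 and 311 CPM. Gfap was found in 35.8% of Cxcr4+/1013 and 41.5% of Cxcr4+/+ cells of that cluster. Foxj1, an ependymal marker, had 134 CPM in Cxcr4+/1013 and 146 CPM in Cxcr4+/+ cells there. The clusters also differed in Mki67, a gene of dividing cells. It was found in 9.70% of Cxcr4+/1013 and 15.9% of Cxcr4+/+ cells of cluster 6. In cluster 8 it was found in 39.3% of Cxcr4+/1013 and 46.1% of Cxcr4+/+ cells. The part of cell division in the contrast was not tested.

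**Figure D4:**
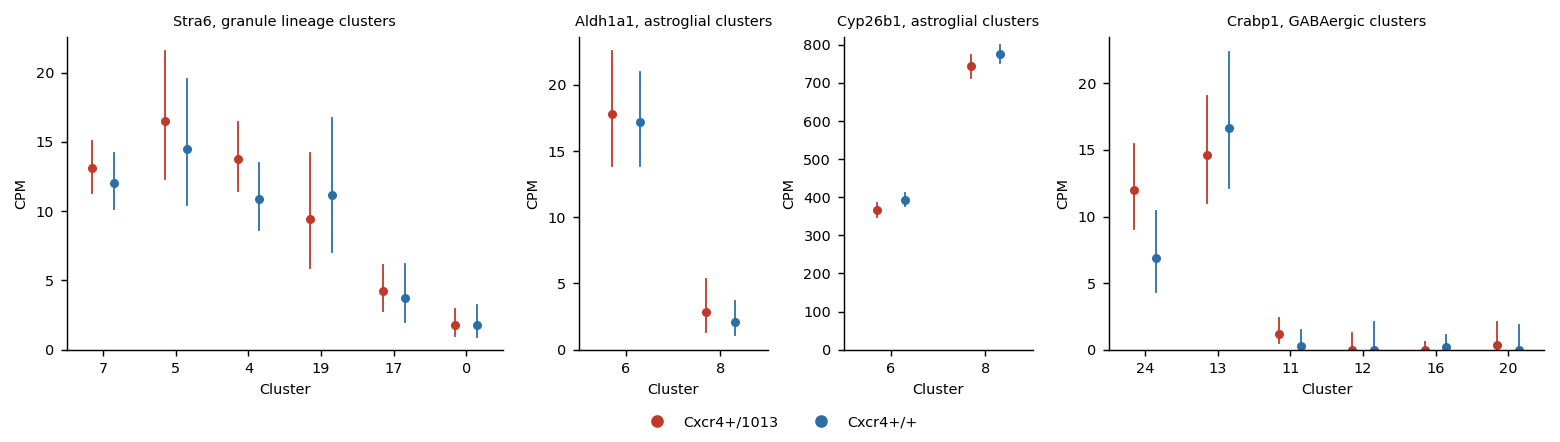
CPM of Stra6, Aldh1a1, Cyp26b1 and Crabp1 in the clusters of the granule, astroglial and GABAergic lineages, with exact 95% Poisson intervals; red is the Cxcr4+/1013 library and blue the Cxcr4+/+ library. Aldh1a1 was higher in cluster 6 (17.8 CPM in Cxcr4+/1013, 17.2 CPM in Cxcr4+/+) and Cyp26b1 in cluster 8 (743 CPM in Cxcr4+/1013, 775 CPM in Cxcr4+/+).

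Cyp26b1 (ENSMUSG00000063415, chr6:84571414-84593908, minus strand), which oxidises retinoic acid to inactive products, had 4690 UMIs in the Cxcr4+/1013 and 7999 UMIs in the Cxcr4+/+ library. Its relatives Cyp26a1 and Cyp26c1 had 6 UMIs each over both. Astroglia-like cells had 536 CPM of Cyp26b1 (519 to 554) in the Cxcr4+/1013 library and 588 CPM (574 to 603) in the Cxcr4+/+ library, a ratio of 0.912 (0.876 to 0.949). Of the 3 members measured in that class none was past 1.5-fold, where 6.13% of genes were. A Cyp26b1 UMI was found in 85.5% of Cxcr4+/1013 and 86.2% of Cxcr4+/+ astroglia-like cells, and at 2000 UMIs per cell the expected shares were 55.6% of Cxcr4+/1013 and 59.6% of Cxcr4+/+ cells. Progenitors with GABAergic or glial markers such as Ptf1a came next, with 89.3 CPM in the Cxcr4+/1013 and 114 CPM in the Cxcr4+/+ library (ratio 0.783, 0.679 to 0.902). Ependymal-like cells followed with 28.5 CPM in the Cxcr4+/1013 and 51.3 CPM in the Cxcr4+/+ library. The pooled intervals of these 3 classes did not overlap. The ependymal-like class joined clusters 18 and 27. In cluster 27 the ependymal marker Foxj1 was found in 100% of cells of both libraries. In cluster 18 it was found in 11.5% of 78 Cxcr4+/1013 and 18.1% of 116 Cxcr4+/+ cells. Those cells were shallow, with medians of 2589 and 2076 UMIs, and had 140 and 282 CPM of the astroglial marker Gdf10. The part of cluster 18 in the Cyp26b1 level of the class was not tested. Cells of unnamed clusters had 101 CPM in the Cxcr4+/1013 and 173 CPM in the Cxcr4+/+ library. Among them cluster 23 had 7 of the 12 astroglial markers enriched. It held 63 Cxcr4+/1013 and 301 Cxcr4+/+ cells, with medians of 2016 and 1631 UMIs. Per 1000 astroglial marker UMIs the unnamed cells had 50.2 Cyp26b1 UMIs in the Cxcr4+/1013 and 49.0 in the Cxcr4+/+ library.

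In neurons and their progenitors Cyp26b1 was present at a few CPM, and there it was lower in the Cxcr4+/1013 library. Unipolar brush-like cells had 2.32 CPM from 13 UMIs in the Cxcr4+/1013 library and 13.1 CPM from 51 UMIs in the Cxcr4+/+ library, a ratio of 0.177 (0.0884 to 0.331). Granule neuron-like cells had 2.87 CPM from 49 UMIs in the Cxcr4+/1013 and 9.09 CPM from 109 UMIs in the Cxcr4+/+ library (ratio 0.315, 0.220 to 0.446). These were the lowest ratios among the 9 classes where Cyp26b1 was measured. A Cyp26b1 UMI was found in 3.18% of Cxcr4+/1013 and 8.68% of Cxcr4+/+ granule neuron-like cells.

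The other ratios were nearer to 1. The ratio was 0.358 (0.175 to 0.687) in neurons with markers of glutamatergic cerebellar nuclei, whose origin the data do not settle since the midbrain markers Tfap2d and Pou4f2 stood among their leading genes. There the log2 ratio was -1.48 over all cells and -0.40, short of 1.5-fold, among cells called male. The ratio was 0.463 (0.298 to 0.708) in Purkinje-like cells, 0.512 (0.363 to 0.715) in granule cell progenitor-like cells, 0.555 (0.398 to 0.766) in ependymal-like cells and 0.578 (0.443 to 0.753) in GABAergic interneuron-like cells. The Purkinje-like log2 ratio was -0.07 among cells called female, where it was -1.11 over all cells. The ependymal-like log2 ratio was -0.85 over all cells, -0.12 under a stricter barcode filter and 0.17 when cells were assigned one by one. Fibroblast-like, midbrain-type and oligodendrocyte-like cells held fewer Cyp26b1 UMIs than the 50 asked of a comparison: midbrain-type neurons had 8.09 CPM in Cxcr4+/1013 and 16.1 CPM in Cxcr4+/+ cells, and oligodendrocyte-like cells 7.32 CPM in Cxcr4+/1013 and 12.4 CPM in Cxcr4+/+ cells. Fibroblast-like cells had 14.6 CPM in the Cxcr4+/1013 library, where 1 cell held 85.7% of the UMIs, and 8.47 CPM in the Cxcr4+/+ library.

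Summed astroglial markers moved with these low levels. The 12 marker genes together had 164 CPM in Cxcr4+/1013 and 298 CPM in Cxcr4+/+ unipolar brush-like cells (ratio 0.549), and 227 CPM in Cxcr4+/1013 and 319 CPM in Cxcr4+/+ granule neuron-like cells (ratio 0.711). Their ratio was 0.678 in the cells with glutamatergic nuclear markers, 0.740 in ependymal-like, 0.787 in Purkinje-like, 0.857 in granule cell progenitor-like and 0.858 in GABAergic interneuron-like cells. In astroglia-like cells the same sum was level, with 20284 CPM in Cxcr4+/1013 and 20348 CPM in Cxcr4+/+ cells (ratio 0.997). Cyp26b1 did not keep 1 proportion to these markers: per 1000 astroglial marker UMIs there were 26.4 Cyp26b1 UMIs in Cxcr4+/1013 and 28.9 in Cxcr4+/+ astroglia-like cells. In unipolar brush-like cells there were 14.2 in the Cxcr4+/1013 and 43.9 in the Cxcr4+/+ library, and in granule cell progenitor-like cells 6.78 in the Cxcr4+/1013 and 11.4 in the Cxcr4+/+ library. The cell with the most Cyp26b1 gave 15.4% of the UMIs of Cxcr4+/1013 and 11.8% of those of Cxcr4+/+ unipolar brush-like cells. The part of astroglial RNA in these droplets was not tested.

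**Figure D5:**
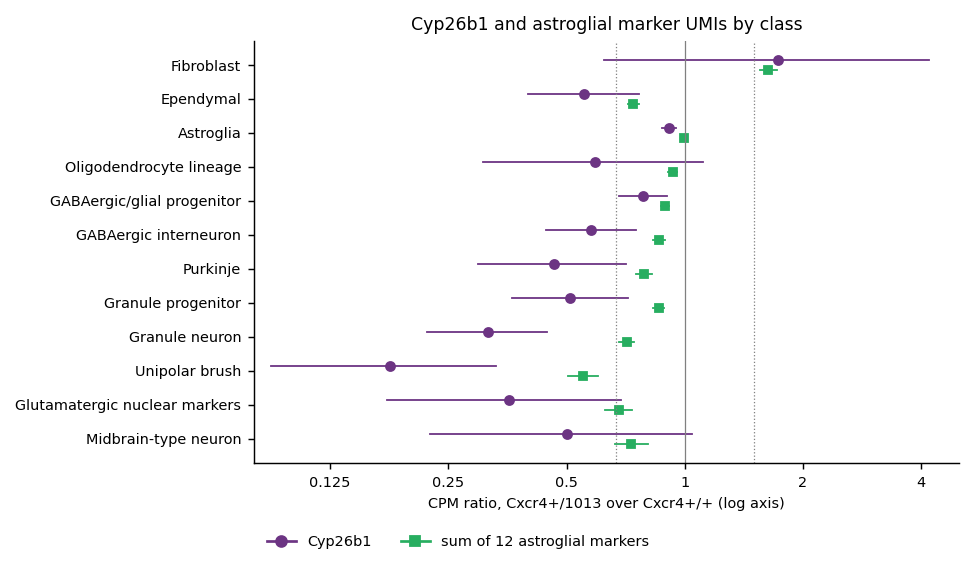
Ratio of CPM, Cxcr4+/1013 over Cxcr4+/+, on a log axis in the 12 classes compared, for Cyp26b1 and for the sum of 12 astroglial markers, each with its exact conditional 95% interval; dotted lines mark 1.5-fold. Cyp26b1 lay at 0.912 in astroglia-like and at 0.177 in unipolar brush-like cells, where the markers lay at 0.997 and 0.549.

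In all, 33 of 96 pairs of a gene and a class held 50 UMIs or more, and 10 of the 33 were past 1.5-fold within the class. Cyp26b1 made up 7 of these 10, all lower in the Cxcr4+/1013 library. The share of all genes past 1.5-fold in either direction was 5.38% in unipolar brush-like cells, where 1 of 1 measured members was, and 4.44% in granule neuron-like cells, where 1 of 3 was. It was 4.56% in granule cell progenitor-like cells with 1 of 3 members, 5.4% in Purkinje-like cells with 1 of 2, 4.02% in GABAergic interneuron-like cells with 1 of 5, and 6.96% in ependymal-like cells with 1 of 3. It was 5.9% in GABAergic or glial progenitor-like cells with 1 of 2 members, and 8.38% in the cells with glutamatergic nuclear markers with 3 of 3. In fibroblast-like cells, where 17.7% of genes were past 1.5-fold, 0 of 7 measured members were. In midbrain-type neurons, where 7.69% of genes were, the 1 measured member was not, and no member was measured in oligodendrocyte-like cells, where 6.65% were.

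Stra6 (ENSMUSG00000032327, chr9:58063788-58153996, plus strand), the membrane receptor that imports retinol, was found in fibroblast-like cells and in the granule lineage. Fibroblast-like cells had 56.4 CPM (37.2 to 82.0) in the Cxcr4+/1013 library and 58.9 CPM (49.97 to 69.1) in the Cxcr4+/+ library, a ratio of 0.957 (0.611 to 1.45). Granule cell progenitor-like cells, the dividing cells of the external granule layer, had 13.7 CPM from 363 UMIs in the Cxcr4+/1013 library and 11.96 CPM from 263 UMIs in the Cxcr4+/+ library, a ratio of 1.15 (0.978 to 1.35). Both intervals hold 1. A Stra6 UMI was found in 20.7% of Cxcr4+/1013 and 17.3% of Cxcr4+/+ progenitor-like cells at median depths of 17723 and 16325 UMIs. Purkinje-like cells, which were deeper, had one in 1.64% of Cxcr4+/1013 and 1.58% of Cxcr4+/+ cells. At 2000 UMIs per cell the progenitor-like shares were 2.81% in Cxcr4+/1013 and 2.43% in Cxcr4+/+, and the Purkinje-like shares 0.173% in Cxcr4+/1013 and 0.181% in Cxcr4+/+.

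Within the granule lineage Stra6 was high in the progenitor clusters 7, 5 and 4, which had 13.1, 16.5 and 13.8 CPM in the Cxcr4+/1013 library and 12.05, 14.5 and 10.8 CPM in the Cxcr4+/+ library. Atoh1, the transcription factor of granule progenitors, lay between 69.7 and 93.1 CPM in Cxcr4+/1013 and between 60.9 and 76.6 CPM in Cxcr4+/+ cells of those clusters. Cluster 19, with 8.98 CPM of Atoh1 in Cxcr4+/1013 and 6.78 CPM in Cxcr4+/+ cells, still had 9.40 CPM of Stra6 in Cxcr4+/1013 and 11.1 CPM in Cxcr4+/+ cells. In the Cxcr4+/+ library that was above cluster 4, and its intervals overlapped those of the progenitor clusters. Cluster 17, where Cntn2, an adhesion gene of early granule neurons, had 280 CPM in Cxcr4+/1013 and 243 CPM in Cxcr4+/+ cells, had 4.22 CPM of Stra6 in Cxcr4+/1013 and 3.70 CPM in Cxcr4+/+ cells. Cluster 0, with 66.4 CPM of Cntn2 in Cxcr4+/1013 and 64.3 CPM in Cxcr4+/+ cells, had 1.80 CPM of Stra6 in Cxcr4+/1013 and 1.79 CPM in Cxcr4+/+ cells. Over all granule neuron-like cells Stra6 had 3.74 CPM in the Cxcr4+/1013 and 4.003 CPM in the Cxcr4+/+ library (ratio 0.935, 0.633 to 1.39), and GABAergic interneuron-like cells had 1.27 CPM in the Cxcr4+/1013 and 1.74 CPM in the Cxcr4+/+ library (ratio 0.729, 0.414 to 1.29).

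Ccdc33 lies on the opposite strand across part of Stra6. Ependymal-like cells had 62.1 CPM of Ccdc33 in the Cxcr4+/1013 and 60.2 CPM in the Cxcr4+/+ library, and 2.59 CPM of Stra6 in the Cxcr4+/1013 and 0.388 CPM in the Cxcr4+/+ library. Fibroblast-like cells had 0 UMIs of Ccdc33 in the Cxcr4+/1013 and 1 UMI in the Cxcr4+/+ library. Granule cell progenitor-like cells had 4.58 CPM of Ccdc33 from 121 UMIs in the Cxcr4+/1013 and 4.73 CPM from 104 UMIs in the Cxcr4+/+ library. Over all cells Ccdc33 had 304 UMIs in the Cxcr4+/1013 and 303 UMIs in the Cxcr4+/+ library. The part of Ccdc33 reads in the Stra6 counts was not tested.

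Crabp1 (ENSMUSG00000032291, chr9:54764748-54773110, plus strand), a cytosolic retinoic acid-binding protein, was spread over unrelated classes. Fibroblast-like cells had 31.3 CPM from 15 UMIs in the Cxcr4+/1013 library and 46.2 CPM from 120 UMIs in the Cxcr4+/+ library (ratio 0.678, 0.368 to 1.16). Ependymal-like cells had 17.6 CPM from 34 UMIs in the Cxcr4+/1013 and 17.1 CPM from 44 UMIs in the Cxcr4+/+ library (ratio 1.03, 0.638 to 1.65). Both intervals hold 1. GABAergic or glial progenitor-like cells had 11.96 CPM from 58 UMIs in the Cxcr4+/1013 library and 6.87 CPM from 22 UMIs in the Cxcr4+/+ library, a ratio of 1.74 (1.05 to 2.98). That difference turned round among cells called male, with a log2 ratio of -0.53, where cells called female had 1.89 and all cells 0.80. It fell short of 1.5-fold, at a log2 ratio of 0.34, when doublets were left in. In the cells with glutamatergic nuclear markers Crabp1 had 5.87 CPM in the Cxcr4+/1013 and 9.35 CPM in the Cxcr4+/+ library (ratio 0.628, 0.362 to 1.07). Those UMIs came from 5 of 363 Cxcr4+/1013 and 7 of 426 Cxcr4+/+ cells, and 1 cell held 54.2% of the Cxcr4+/1013 UMIs.

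In the GABAergic interneuron-like class, where the level was 2.85 CPM in the Cxcr4+/1013 and 2.96 CPM in the Cxcr4+/+ library (ratio 0.963, 0.648 to 1.44), most Crabp1 came from 1 of 5 clusters. Cluster 13, where the early interneuron factor Pax2 had 1060.05 CPM in Cxcr4+/1013 and 887 CPM in Cxcr4+/+ cells, had 14.7 CPM of Crabp1 (11.04 to 19.1) in Cxcr4+/1013 and 16.7 CPM (12.1 to 22.4) in Cxcr4+/+ cells. It held 55 of the class's 63 Crabp1 UMIs in the Cxcr4+/1013 library and 44 of 46 in the Cxcr4+/+ library. Cluster 11, with 670.02 CPM of Pax2 in Cxcr4+/1013 and 614 CPM in Cxcr4+/+ cells, had 1.15 CPM of Crabp1 in Cxcr4+/1013 and 0.258 CPM in Cxcr4+/+ cells, and the other 3 clusters held 1 UMI together in each library.

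Crabp2 (ENSMUSG00000004885, chr3:87948666-87953376, plus strand), which hands retinoic acid to its receptors, was highest in fibroblast-like cells. They had 31.3 CPM from 15 UMIs (17.5 to 51.7) in the Cxcr4+/1013 library and 32.0 CPM from 83 UMIs (25.5 to 39.6) in the Cxcr4+/+ library, a ratio of 0.980 (0.525 to 1.71). Of the 15 Cxcr4+/1013 UMIs, 66.7% came from 1 cell. In the other classes no library held more than 16 UMIs of Crabp2, the most being in Purkinje-like cells with 8 UMIs in the Cxcr4+/1013 and 16 UMIs in the Cxcr4+/+ library.

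Rara (ENSMUSG00000037992, chr11:98927818-98974942, plus strand), the broadly expressed retinoic acid receptor, was led by cells of vessels and membranes. Border macrophage-like cells had 47.7 CPM from 17 UMIs in the Cxcr4+/1013 and 35.6 CPM from 10 UMIs in the Cxcr4+/+ library. Endothelial-like cells had 37.9 CPM from 35 UMIs in the Cxcr4+/1013 and 27.6 CPM from 54 UMIs in the Cxcr4+/+ library (ratio 1.37, 0.872 to 2.14). Fibroblast-like cells had 27.1 CPM from 13 UMIs in the Cxcr4+/1013 and 20.03 CPM from 52 UMIs in the Cxcr4+/+ library (ratio 1.36, 0.677 to 2.52). The pooled endothelial-like interval, 24.8 to 38.00 CPM, overlapped both of its neighbours, 27.9 to 61.6 CPM in border macrophage-like and 16.3 to 26.9 CPM in fibroblast-like cells, which did not overlap each other.

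Among glia and neurons Rara was lower. Astroglia-like cells had 9.93 CPM in the Cxcr4+/1013 and 10.2 CPM in the Cxcr4+/+ library (ratio 0.973, 0.712 to 1.32), and oligodendrocyte-like cells 8.13 CPM from 20 UMIs in the Cxcr4+/1013 and 5.97 CPM from 13 UMIs in the Cxcr4+/+ library. Purkinje-like cells had 4.34 CPM in the Cxcr4+/1013 and 4.76 CPM in the Cxcr4+/+ library (ratio 0.911, 0.641 to 1.29). GABAergic interneuron-like cells had 2.89 CPM in the Cxcr4+/1013 and 3.28 CPM in the Cxcr4+/+ library (ratio 0.883, 0.601 to 1.301). Granule neuron-like cells had 1.29 CPM from 22 UMIs in the Cxcr4+/1013 and 0.751 CPM from 9 UMIs in the Cxcr4+/+ library. No measured class was past 1.5-fold for Rara. Ependymal-like cells had 10 UMIs, 5.18 CPM, in the Cxcr4+/1013 library and 34 UMIs, 13.2 CPM, in the Cxcr4+/+ library, below the 50 UMIs asked of a comparison.

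Rarb (ENSMUSG00000017491, chr14:16430839-16819156, minus strand), the receptor whose own promoter carries the repeat shown above, was highest in the fibroblast-like cells that held Aldh1a2. They had 98.2 CPM (72.1 to 131) from 47 UMIs in the Cxcr4+/1013 library and 90.5 CPM (79.3 to 103) from 235 UMIs in the Cxcr4+/+ library, a ratio of 1.08 (0.775 to 1.49). An Rarb UMI was found in 54.5% of Cxcr4+/1013 and 55.9% of Cxcr4+/+ fibroblast-like cells. Mural-like cells, the pericytes and smooth muscle of vessels, had 33.7 CPM from 5 UMIs in the Cxcr4+/1013 and 63.6 CPM from 26 UMIs in the Cxcr4+/+ library. Ependymal-like cells had 39.4 CPM from 76 UMIs in the Cxcr4+/1013 and 42.0 CPM from 108 UMIs in the Cxcr4+/+ library (ratio 0.938, 0.690 to 1.27), and cluster 27 gave 75 of the 76 and all of the 108. Mural-like and ependymal-like levels overlapped in their pooled intervals, and both lay below the fibroblast-like level.

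Among neurons Rarb was highest in those with midbrain markers, with 28.7 CPM from 39 UMIs in the Cxcr4+/1013 and 23.9 CPM from 40 UMIs in the Cxcr4+/+ library (ratio 1.20, 0.752 to 1.91). In the cells with glutamatergic nuclear markers it had 15.4 CPM from 63 UMIs (11.8 to 19.7) in the Cxcr4+/1013 library and 8.65 CPM from 37 UMIs (6.09 to 11.9) in the Cxcr4+/+ library. Here the ratio was past 1.5-fold, at 1.78 (1.17 to 2.75), but its log2 value of 0.83 became 0.37, short of it, when cells were assigned one by one. Granule cell progenitor-like cells had 7.72 CPM in the Cxcr4+/1013 and 6.50 CPM in the Cxcr4+/+ library (ratio 1.19, 0.954 to 1.48), and granule neuron-like cells 2.69 CPM in the Cxcr4+/1013 and 2.67 CPM in the Cxcr4+/+ library (ratio 1.008, 0.628 to 1.64). GABAergic interneuron-like cells had 3.89 CPM in the Cxcr4+/1013 and 5.21 CPM in the Cxcr4+/+ library (ratio 0.747, 0.545 to 1.02).

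The end of Top2b lies on the opposite strand across the end of Rarb. Top2b had 354 CPM in Cxcr4+/1013 and 266 CPM in Cxcr4+/+ cells with glutamatergic nuclear markers. In Purkinje-like cells it had 177 CPM in the Cxcr4+/1013 and 138 CPM in the Cxcr4+/+ library, where Rarb had 0.610 CPM in the Cxcr4+/1013 and 0.587 CPM in the Cxcr4+/+ library. The part of Top2b reads in the Rarb counts was not tested.

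The lists of retinoid genes around these 8 held 60 genes, of which 47 reached 50 UMIs over all cells. In the whole library 12 of the 47, 5 of them members, were at least 1.5-fold lower in Cxcr4+/1013 cells and none was 1.5-fold higher, where 7.4% of all genes were lower and 2.21% higher, and the median log2 ratio was -0.18. Among the genes beyond the members, Ttr, which carries retinol-binding protein in plasma and cerebrospinal fluid, had a ratio of 0.378 from 17 UMIs in the Cxcr4+/1013 and 41 UMIs in the Cxcr4+/+ library. Lrat, which esterifies retinol for storage, had a ratio of 0.483, and the retinoic acid target Tgm2 one of 0.544. These ratios are over all cells, and the weighting by class shares covered the 8 members only. Within ependymal-like cells the Lrat ratio was 0.784 (0.428 to 1.40). Tgm2 had 46.6 CPM in Cxcr4+/1013 and 45.4 CPM in Cxcr4+/+ endothelial-like cells, its leading class. In fibroblast-like cells, the next class, it had 35.5 CPM in Cxcr4+/1013 and 46.6 CPM in Cxcr4+/+ cells. By list, with some genes on more than 1, 6 of 11 measured genes of uptake, transport and storage were lower, 2 of 15 of synthesis, 1 of 1 of breakdown, 1 of 14 receptors and cofactors, and 5 of 13 targets. The counts for synthesis and for receptors and cofactors are near the 7.4% of all genes.

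Within classes fewer genes of these lists were past 1.5-fold. In fibroblast-like cells 2 of 25 measured genes were, a smaller share than the 17.7% of all genes there, both coactivators of nuclear receptors and both higher in the Cxcr4+/1013 library: Ncoa1 had 165 CPM in Cxcr4+/1013 and 101 CPM in Cxcr4+/+ cells, and Ep300 had 94.0 CPM in Cxcr4+/1013 and 60.1 CPM in Cxcr4+/+ cells. Rdh10, the retinol dehydrogenase that feeds the ALDH1A enzymes, had 217 CPM in both libraries there. In astroglia-like cells 1 of 32 genes was past 1.5-fold, where 6.13% of all genes were: Rbp2, a cellular retinol-binding protein, with 3.12 CPM in Cxcr4+/1013 and 6.30 CPM in Cxcr4+/+ cells. Larger shares than over all genes were found elsewhere, each with Cyp26b1 lower. Cells with glutamatergic nuclear markers had 2 lower and 3 higher of 24, against 8.38% of all genes. Purkinje-like cells had 4 lower of 29 (all genes 5.4%) and unipolar brush-like cells 2 of 22 (5.38%). GABAergic interneuron-like cells had 2 lower and 1 higher of 33 (4.02%), and ependymal-like cells 2 and 1 of 29 (6.96%). In each remaining class compared at most 1 was past 1.5-fold.

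Meis2, a homeobox gene on the target list, was lower in the Cxcr4+/1013 library in 4 classes where its level was low. It had 28.9 CPM in Cxcr4+/1013 and 55.1 CPM in Cxcr4+/+ unipolar brush-like cells, and 3.93 CPM in Cxcr4+/1013 and 7.96 CPM in Cxcr4+/+ Purkinje-like cells. It had 33.1 CPM in Cxcr4+/1013 and 52.8 CPM in Cxcr4+/+ ependymal-like cells, and 8.37 CPM in Cxcr4+/1013 and 12.9 CPM in Cxcr4+/+ GABAergic interneuron-like cells. Its leading class, the cells with glutamatergic nuclear markers, for which it is a marker, had 1518 CPM in the Cxcr4+/1013 and 1347 CPM in the Cxcr4+/+ library. Meis1, a related gene, had 7.66 CPM in Cxcr4+/1013 and 12.99 CPM in Cxcr4+/+ Purkinje-like cells. Rorb, a nuclear receptor on the receptor list, was higher in GABAergic interneuron-like cells (34.1 CPM in Cxcr4+/1013, 21.6 CPM in Cxcr4+/+) and in cells with glutamatergic nuclear markers (44.97 CPM in Cxcr4+/1013, 26.9 CPM in Cxcr4+/+). Rxrb, an RXR partner, was also higher in the second of these classes, with 17.1 CPM in Cxcr4+/1013 and 10.98 CPM in Cxcr4+/+ cells.

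Over both libraries together, Rxrg, another RXR partner, was highest in astroglia-like cells, with 39.1 CPM in the Cxcr4+/1013 and 37.2 CPM in the Cxcr4+/+ library. Dhrs3, which reduces retinaldehyde back to retinol, had 95.5 CPM there in the Cxcr4+/1013 and 82.1 CPM in the Cxcr4+/+ library, and 101 CPM in Cxcr4+/1013 and 71.7 CPM in Cxcr4+/+ microglia-like cells, which numbered 34 in the Cxcr4+/1013 and 45 in the Cxcr4+/+ library. Lrat was highest in ependymal-like cells, with 10.4 CPM in the Cxcr4+/1013 and 13.2 CPM in the Cxcr4+/+ library, and so was Rbp2, with 42.5 CPM in the Cxcr4+/1013 and 32.6 CPM in the Cxcr4+/+ library.

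Genes outside the marker lists whose levels ran most like a member's across 14 classes were found by Pearson's r of log2(CPM + 1), pooled over both libraries, among 15682 genes. The classes share libraries and depth, so r is a description. Aldh1a2 ran closest to Abca8a (r = 0.983), Gm30624 (0.976) and Lrrc17 (0.975), and Aldh1a1 to Fgf2 (0.975), Gm266 (0.957) and Sspn (0.929). Cyp26b1 ran closest to Aldh1l1, an astrocyte enzyme of folate metabolism (0.943), Pdlim3 (0.937) and Msx2 (0.936). Stra6 ran closest to Bmp5, a bone morphogenetic protein (0.928), Ppp1r14a (0.877) and Sec31a (0.865). Crabp1 ran closest to Gxylt2 (0.849), Itga11 (0.819) and Col12a1 (0.812), and Crabp2 to the nonagouti gene a (0.968), Ccr9 (0.946) and Mageb18 (0.913). Rara ran closest to Chpf2 (0.946), Saysd1 (0.909) and Bhlhe40 (0.905), and Rarb to Tnfrsf23 (0.822), Runx2 (0.819) and Nrd1 (0.818).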

How the data were processed

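Reads were processed with Cell Ranger 7.2 and bcl2fastq 2.20.0.4222 against mm10, per the submitters' processing notes; intron counting, strand use and annotation release: not given in the sources used here. Per the files, the authors' deposited matrices hold whole-number UMI counts with no normalisation. Barcodes needed at least 500 genes and no more than 10% mitochondrial UMIs (8194 Cxcr4+/1013, 8353 Cxcr4+/+). Scrublet in scanpy 1.11.5 ranked doublets, and the top scores were removed at 0.8% per 1000 barcodes (626 Cxcr4+/1013, 641 Cxcr4+/+; its own threshold gave 336 and 381). Clusters (2000 variable genes, 30 components, 15 neighbours, Leiden resolution 1) were named from 20 marker lists: at least 3 markers in at least 10% of cells and 2-fold enriched, with shallow clusters lacking leading markers unnamed. Comparisons took classes of 100 or more cells per library, plus fibroblast-like cells. UMIs were summed by class. Ratios carry exact conditional binomial, shares exact Clopper-Pearson intervals, and thinned shares are expected values. Members were named per class from 20 UMIs in a library, and listed genes past 1.5-fold with intervals leaving out 1, up to 4 per direction; some listed genes are not reported here. Members and lists were chosen with earlier results of these data known. Cells were grouped by genotype label and class, with no test. The ratio step was tested on simulated data. Alternatives used edgeR 4.0.16 and DESeq2 1.42.0 size factors only. Gene positions are from GENCODE vM21.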

Additional observations from a re-analysis of the deposited data

Results flagged for a closer look

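Crabp1 in GABAergic or glial progenitor-like cells had opposite directions in the sexes: the log2 ratio (Cxcr4+/1013 over Cxcr4+/+) was 1.89 among cells called female, from 34 UMIs in the Cxcr4+/1013 and 7 UMIs in the Cxcr4+/+ library, and -0.527 among cells called male, from 19 UMIs in the Cxcr4+/1013 and 14 UMIs in the Cxcr4+/+ library. In the cells with glutamatergic nuclear markers the log2 ratio of Crabp1 was -1.39 among female cells, from 18 UMIs in the Cxcr4+/1013 and 35 UMIs in the Cxcr4+/+ library, and 1.87 among male cells, from 6 UMIs in the Cxcr4+/1013 and 5 UMIs in the Cxcr4+/+ library. Neither difference was tested.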

How the results depend on the processing

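The count of 5 members past 1.5-fold over all cells was 4 with TMM or DESeq2 size factors, which left out Crabp1, and 6 among cells of either sex. It was 3 at a fold of 2 and 0 when class shares were set equal, at those of either library. The count of 10 pairs within classes was 45 of 89 with no minimum of UMIs and 4 at a fold of 2, and lay between 7 and 12 under the other alternatives. Single ratios stayed within their counting interval in 270 cases, moved beyond it in 33 and reversed in 5. Only ratios past 1.5-fold as reported could count as reversed. A change of sign in any other ratio was counted under the 270 or the 33. Reversed log2 ratios were 0.17 for Cyp26b1 in ependymal-like cells when cells were assigned one by one. For Crabp1 they were -0.53 (male cells) and -1.34 (cells assigned one by one, 1 UMI in the Cxcr4+/1013 and 2 UMIs in the Cxcr4+/+ library) in GABAergic or glial progenitor-like cells, and 1.87 (male cells) and 0.87 (cells assigned one by one) in those with glutamatergic nuclear markers; the cause was not tested. Cyp26b1 was past 1.5-fold in the same direction under all 8 alternatives in GABAergic interneuron-like, granule cell progenitor-like, granule neuron-like and unipolar brush-like cells, under 7 of 8 in Purkinje-like and under 4 of 8 in ependymal-like cells, and under 6 of 7 in the cells with glutamatergic nuclear markers, where the log2 ratio was -0.40 among male cells. Not every alternative could move a value much, so these counts overstate the number of separate checks. In unipolar brush-like cells the Cyp26b1 log2 ratio was -2.50 as reported and with coarser clustering, and -2.49 with either size factor. None of the 8 removed astroglial RNA from the droplets. A stricter barcode filter gave no value for the cells with glutamatergic nuclear markers. No paired analysis was possible because there was 1 library of each genotype. In the Cxcr4+/1013 library only 33 fibroblast-like cells were found, and 7 to 89 UMIs stood behind each member there.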
